A study of Mus musculus with 2 samples.

Results

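The 202 genes described here are the long non-coding RNA (lncRNA) genes that were well counted in total RNA of differentiating G1E-ER4 cells. They were chosen on their annotation and on measured values. A gene was kept when GENCODE M21 (mm10) gave it one of 8 types, TEC (models that await experimental proof), lincRNA, processed_transcript, antisense, sense_intronic, bidirectional_promoter_lncRNA, sense_overlapping or macro_lncRNA, and when its expected count, the number of reads the quantifier assigned to it, was 100 or more in each library. Gm42418, Gm26917, Gas5 and the Snhg genes were left out by name. The rule kept 202 of 6836 listed genes of these types, out of 43346 Ensembl genes in all, and because it used the counts, no level given below was tested.

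G1E-ER4 is an immortalized mouse erythroid progenitor line, labelled male and C57BL/6J, in which GATA1, the transcription factor that drives red cell maturation, was lost and then restored in a form that acts when estradiol is present. The data are 2 total RNA-seq libraries of a single group, both from cells given 10 nM estradiol for 24 h and labelled as biological replicates of the same line. Cells without estradiol were not analysed here, so every value is a level in induced cells or a difference between replicates, and p-values are not given. The libraries held 50277914 and 47478888 expected counts in replicates 1 and 2, of which the genes left out by name took 55.8% and 54.2% and nuclear protein-coding genes 28.6% and 29.3%. All 10 erythroid marker genes had a TPM (the level per transcript length, scaled to the same total in each library) of 1 or more in both libraries, among them Gata1 itself at 57.58 and 65.70 TPM. None of 8 granulocyte and macrophage markers and none of 6 T and B cell markers reached 1 TPM in both libraries. Their summed levels were 0.970 and 4.93 TPM and 0.210 and 0.810 TPM. The first of these sums was higher in replicate 2, where Mpo had 70 counts, against 1 in replicate 1. The part of such cells in the lncRNA levels was not tested, and in bulk RNA fewer cells of a type and less RNA per cell cannot be told apart. In the stromal list Vim, an intermediate filament gene that blood progenitors also express, was detected and Col1a1 and Pdgfrb had no read.

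Long non-coding RNAs are transcripts longer than the small RNAs and without a long open reading frame. Some act in the nucleus on chromatin or as the scaffold of nuclear bodies, some silence neighbouring genes of one parental allele, some bind proteins or are cut to release microRNAs or small nucleolar RNAs (snoRNAs), and many have no known function. In red cell precursors the microRNAs of the miR-17 to miR-92 and miR-15a/16-1 clusters come from such host transcripts. The first cluster restrains cell death and the second the cell cycle.

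The sequences that set these hosts apart are the microRNAs they carry. GENCODE M21 placed 15 microRNA genes inside 6 members on the same strand, and RefSeq (GRCm38.p6) gave the mature sequences for 14 of these genes in 5 members, 27 mature microRNAs with 20 different seeds. The seed, bases 2 to 8, which pairs with target messages, is in capitals below for the microRNAs that share a seed with another of the same host and for the remaining main arms of the Mir17hg cluster.
miR-17-5p: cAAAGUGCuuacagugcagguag
miR-20a-5p: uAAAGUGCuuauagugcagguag
miR-18a-5p: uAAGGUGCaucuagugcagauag
miR-19a-3p: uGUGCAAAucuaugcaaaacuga
miR-19b-3p: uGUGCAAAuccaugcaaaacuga
miR-92a-3p: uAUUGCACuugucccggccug
miR-15a-5p: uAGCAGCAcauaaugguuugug
miR-16-5p: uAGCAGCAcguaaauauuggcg
let-7a-5p: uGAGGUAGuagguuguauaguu
let-7d-5p: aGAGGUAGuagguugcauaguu
let-7f-5p: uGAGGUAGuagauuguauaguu
let-7a-1-3p: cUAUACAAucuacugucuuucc
let-7f-1-3p: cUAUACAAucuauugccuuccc
miR-29b-3p: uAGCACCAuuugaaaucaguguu
miR-29c-3p: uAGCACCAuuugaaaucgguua
In Mir17hg on chromosome 14, miR-17-5p and miR-20a-5p shared the seed AAAGUGC and miR-19a-3p and miR-19b-3p the seed GUGCAAA. Within Dleu2, on the minus strand of the same chromosome, miR-15a-5p and miR-16-5p shared AGCAGCA. The 5p arms of the 3 let-7 microRNAs of 6720427I07Rik on chromosome 13 shared GAGGUAG, and let-7a-1-3p and let-7f-1-3p of the same host shared UAUACAA. In the same way miR-29b-3p and miR-29c-3p in A330023F24Rik on chromosome 1 shared AGCACCA. The RNA was selected for sizes above 200, so the tables give the level of the host and not of the mature microRNAs.

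A second set of sequences marks 2900097C17Rik, the gene RefSeq calls Norad, a cytoplasmic RNA that binds Pumilio proteins through repeats of a short recognition element. Its M21 transcript, 2900097C17Rik-202 on chromosome 2, held 11 matches to the Pumilio letters TGTANATA on the transcript strand, and 4 of them are shown as windows of 30 bases with the match in capitals.
Norad match 1, bases 651 to 658 of the transcript: tagaagtcctgTGTATATAatatgaaaaag
Norad match 2, bases 1147 to 1154: agtaaacatgcTGTAAATAcctttttgtta
Norad match 4, bases 1523 to 1530: actgactgctgTGTATATAgtggacaacag
Norad match 10, bases 2754 to 2761: cagtactactaTGTATATAggggacaaatt
That is 2.24 matches per kilobase, against 0.172 per kilobase over the leading transcripts of all 202 members. The member rate includes Norad itself, with its 11 matches, and its near-identical copy Gm7292, with 9. Over the leading transcripts of nuclear protein-coding genes with the same count minimum the rate was 0.128. Such letters were present at least once in 66 of 202 members (32.7%) and in 30.4% of those coding genes. Malat1-201, the full-length transcript of the most abundant member, had none.

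Promoter windows, 250 bases before to 50 bases after the start in RefSeq (GRCm38.p6), were found for 67 of the 202 members. These do not stand for all members. Of the 70 TEC members only Gm7265 had a window. Of the 69 members inside a same-strand intron of a coding gene, only Gm7265 and 2810013P06Rik had one. The shares below therefore leave out nearly all of both groups. Malat1, Ttc39aos1 and 1110038B12Rik are shown because they are the most abundant member, the member on the erythroid list and the most abundant snoRNA host with a window that holds every motif searched. Capitals mark matches on either strand to AGATAA or TGATAA (the core letters of GATA factors), TATAAA and CCAAT.
Malat1, chr19:5802623-5802922, minus strand: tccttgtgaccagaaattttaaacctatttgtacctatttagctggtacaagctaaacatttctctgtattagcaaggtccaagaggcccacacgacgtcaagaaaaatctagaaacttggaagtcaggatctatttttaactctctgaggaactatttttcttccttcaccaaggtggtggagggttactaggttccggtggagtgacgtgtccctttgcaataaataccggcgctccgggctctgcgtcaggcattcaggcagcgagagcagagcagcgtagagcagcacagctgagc
Ttc39aos1, chr4:109406208-109406507, minus strand: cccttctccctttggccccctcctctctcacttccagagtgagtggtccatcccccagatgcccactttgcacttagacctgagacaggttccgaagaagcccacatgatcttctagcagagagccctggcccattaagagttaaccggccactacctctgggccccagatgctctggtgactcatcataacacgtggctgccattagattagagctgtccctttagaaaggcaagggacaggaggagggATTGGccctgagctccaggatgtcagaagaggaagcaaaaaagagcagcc
1110038B12Rik, chr17:34952422-34952721, minus strand: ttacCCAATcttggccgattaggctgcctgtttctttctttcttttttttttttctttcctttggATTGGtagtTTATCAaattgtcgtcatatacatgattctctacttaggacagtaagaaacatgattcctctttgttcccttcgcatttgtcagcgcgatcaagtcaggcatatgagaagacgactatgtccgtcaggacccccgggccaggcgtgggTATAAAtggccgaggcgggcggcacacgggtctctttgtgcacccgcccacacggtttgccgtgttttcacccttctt
The Malat1 window held none of the letters, that of Ttc39aos1 held CCAAT on the strand opposite the printed one, and that of 1110038B12Rik held every kind. AGATAA or TGATAA was found in 9 of the 67 windows (13.4%), against 8.77% of the windows of well-counted nuclear coding genes, 18.3% of those of other lncRNA genes and 18.6% of all 32851 windows in the table. TATAAA stood in 5.97% of member windows, 6.17% of coding, 11.1% of other lncRNA and 13.6% of all windows, and CCAAT in 38.8% of member windows, 41.1% of coding, 35.9% of other lncRNA and 37.4% of all windows. Of the member windows 73.1% had an observed over expected CpG ratio of 0.6 or more, against 83.1% for well-counted coding genes, 28.2% for other lncRNA genes and 35.8% for all windows. Of the 67 windows 8 belong to members that match a protein-coding gene in RefSeq, and without them the share was 74.6% of 59. The ratio varied widely among members, with 0.135 for Ttc39aos1, 0.192 for Airn, 0.604 for Malat1, 0.943 for 1110038B12Rik and 1.22 for Rab10os. A match describes these letters only and does not show binding. In 7 windows the RefSeq start lay more than 500 bases from the M21 start, among them Tug1, Mir17hg and Gm14230, whose window is 1 of the 9 with GATA letters. Without these 7, GATA letters were in 13.3% of the windows and the CpG share was 73.3%. In 52 of the 67 windows the bases after the start were found in an M21 transcript of the gene.

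The members together held 136163 counts in replicate 1 and 137821 in replicate 2, which was 0.281% ± 0.0138 of all counts (SD, n = 2) and 84.0% ± 0.297 of the counts of all 6836 listed genes of these types. Of the other 6634 genes, 5377 had no read in either library. Both shares follow from the count minimum. The median member had 2.99 TPM, with a range of 0.770 to 542, and nuclear protein-coding genes with the same minimum had a median of 10.7 TPM. A level of 1 TPM or more in both libraries was reached by 185 of 202 members and by 8028 of 8107 such coding genes, 30 members averaged 10 TPM or more and 4 averaged 100 or more.

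Counts were concentrated in few genes. Malat1 alone took 20.6% and 22.1% of the member counts in replicates 1 and 2 and Kcnq1ot1 took 14.3% and 15.3%, and the 10 members with the most counts took 56.4% and 58.3%. Ranking by TPM gave a different order, since long transcripts gather many reads: 13 genes were in the top 25 by both measures, and Kcnq1ot1, second by count, was number 46 by TPM.

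**Figure D1:**
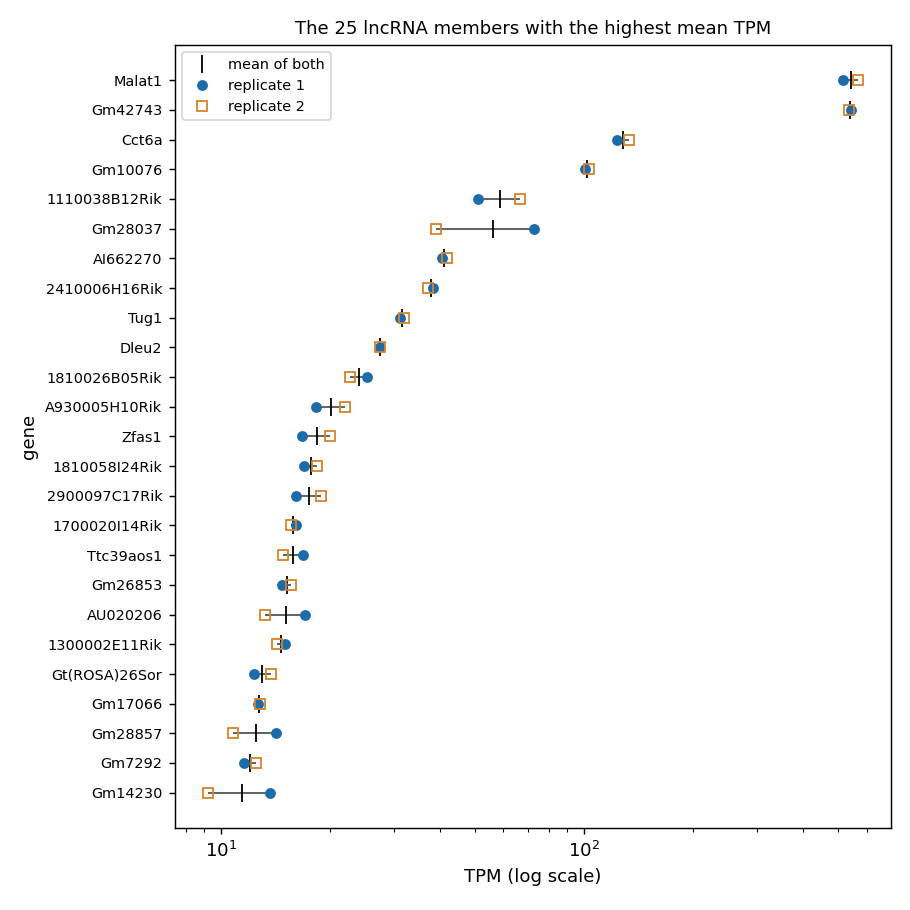
TPM in each library (log scale) of the 25 members with the highest mean TPM, with replicate 1 as filled circles, replicate 2 as open squares and the mean of both as a vertical tick. Malat1 and Gm42743 lie far above the rest, at 515.10 TPM or more in both libraries, and the widest gap on this scale is that of Gm28037, at 72.90 and 39.15 TPM.

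Several of the most abundant members were not purely long non-coding RNA by other annotation. Gm42743, on chromosome 3, had 544.08 and 535.78 TPM in replicates 1 and 2, but 96.94% and 97.23% of that level came from a transcript of 381 bases that M21 assigns to Hist2h2bb, a histone H2B gene. Its own transcript, Gm42743-201, had 16.62 and 14.83 TPM. Gm20634, at 2.98 and 3.07 TPM, likewise took 26.8% and 55.9% of its counts from a transcript that M21 assigns to the histone H3 gene Hist2h3c1. Of 100 members matched in RefSeq by name or synonym, 82 were lncRNA genes, 2 antisense RNAs, 3 pseudogenes and 13 matched a protein-coding gene. These 13 held 7.09% ± 0.0878 of the member counts (SD, n = 2) and included Cct6a, a subunit of the cytosolic chaperonin that folds actin and tubulin. Cct6a had 123.36 TPM in replicate 1 and 133.30 in replicate 2 and was the third most abundant member. Ifi30, a lysosomal thiol reductase, averaged 7.97 TPM and Ptpmt1, a mitochondrial phosphatase, 9.55 TPM.

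Sequence copies limited other members. Searched against all M21 transcripts, 13 members had a copy elsewhere with at least 95% identity over 200 bases or more, and in 5 the copy covered more than 50% of the leading transcript. Gm10076, which RefSeq classes as a pseudogene, matched Rpl41, a ribosomal protein gene, at 99.5% identity over 99.7% of its length. Gm10076 was listed at 100.51 and 103.26 TPM and Rpl41 averaged 808 TPM, so how the counts divide between the pair is uncertain. Gm28037, at 72.90 and 39.15 TPM, overlaps exons of the ribosomal protein gene Rpl24 on the same strand and matched the processed pseudogene Gm9385 at 99.7% identity over 64.6% of its length. Its counts were 1182.65 in replicate 1 and 599.05 in replicate 2, while those of Rpl24 were 1624.89 and 1808.00.

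Malat1 and Neat1 are neighbours in the genome whose RNAs stay in the nucleus, Malat1 in splicing speckles and Neat1 as the scaffold of paraspeckles. Malat1 (lincRNA, chr19:5795690-5802672, minus strand) had 28034 and 30527 counts, which gave 515.10 and 568.05 TPM and averaged 542 ± 37.4 TPM (SD, n = 2). The full-length Malat1-201 of 6983 bases took 77.9% and 79.6% of these counts but 18.73% and 19.88% of the TPM, because 4 annotated transcripts of 485 to 656 bases are divided by their short lengths. In TPM those short forms led, Malat1-203 in replicate 1 and Malat1-202 in replicate 2, so the Malat1 TPM rests on how reads were shared among nested transcripts. Neat1 had 2104.43 counts in replicate 1 and 2669.33 in replicate 2, or 4.49 and 5.81 TPM. Its long form Neat1-201, 20771 bases and the one that builds paraspeckles, took 92.7% and 93.4% of the counts and 63.80% and 66.31% of the TPM. The short form Neat1-202 took the rest. These shares too rest on how reads were divided between the forms. Of the 5 genes listed for nuclear organisation, Malat1 and Neat1 were members, Firre with 102 and 89 counts fell just under the minimum, Xist had 1 and 0 counts and Miat had no read.

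**Figure D2:**
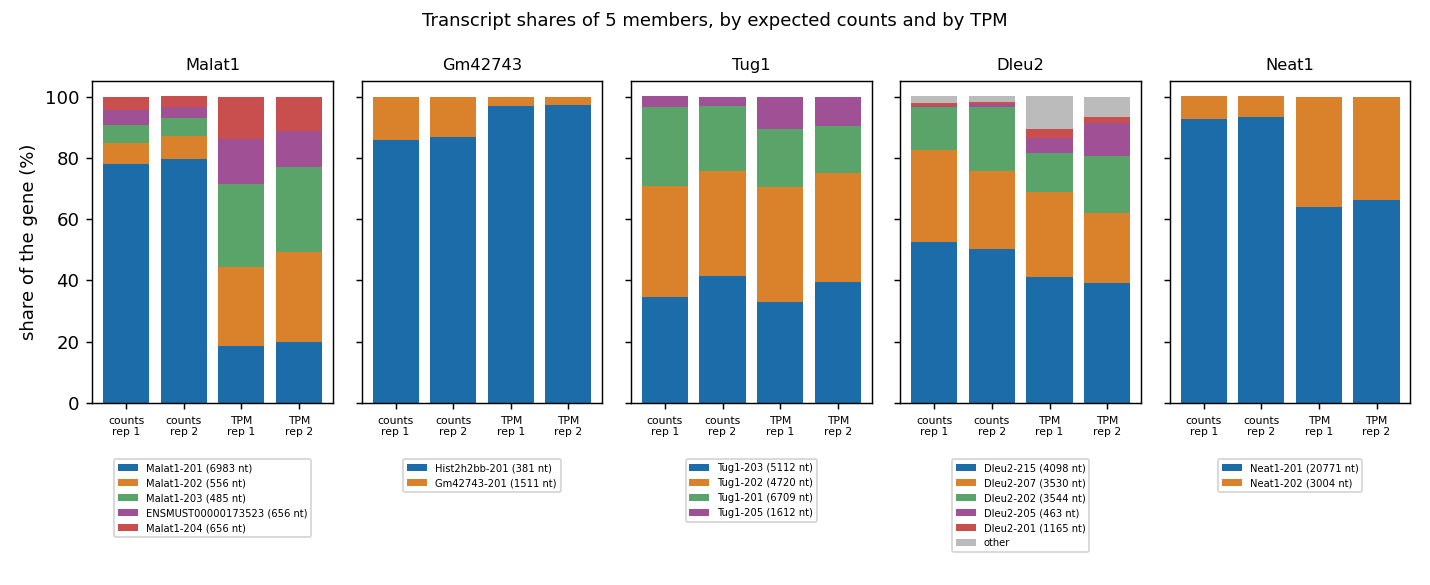
Share of each gene that its annotated transcripts took (%), by expected counts (left pair of bars) and by TPM (right pair), in replicates 1 and 2, for Malat1, Gm42743, Tug1, Dleu2 and Neat1. Malat1-201 takes 77.9% and 79.6% of counts and 18.73% and 19.88% of TPM, and in Gm42743 the Hist2h2bb transcript leads by both units.

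Imprinted lncRNAs are made from the paternal or the maternal allele only, and Kcnq1ot1, Airn and Nespas are each transcribed antisense to a gene of their own cluster. Of 7 imprinted lncRNAs matched, these 3 were members, and H19, Meg3, Rian and Mirg had no read in either library. Kcnq1ot1, which silences genes around Kcnq1 and Cdkn1c on the paternal chromosome, had 19434 and 21021 counts over a single listed transcript of 84395 bases, or 6.99 TPM in replicate 1 and 7.96 in replicate 2. Both Kcnq1 and Cdkn1c had 0 counts in both libraries. Airn, the antisense repressor of the growth factor receptor gene Igf2r, had 12.11 and 9.09 TPM, and Igf2r itself was detected at 14.94 and 13.95 TPM. Nespas, antisense within the locus of the G protein subunit gene Gnas, had 4.83 and 4.36 TPM, and Gnas had 279.00 and 272.03 TPM. The 3 clusters thus showed the lncRNA with its neighbours at 0, at a similar level and far higher. Alleles were not distinguished in these tables.

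In the X inactivation centre, Tsix was the only member of 4 listed genes. Tsix, the antisense transcript that keeps Xist off, had 522.17 and 524.53 counts, or 3.78 TPM in replicate 1 and 4.0 in replicate 2. Xist, the RNA that coats and silences an X chromosome, had 1 and 0 counts, although the annotated exons of both genes share 1980 bases on opposite strands. Tsix also shares exon bases on its own strand with Gm26992, which had 21.83 and 84.47 counts. Jpx had 0 and 4 counts and Ftx 55 and 25.

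Of 6 matched genes with roles in RNA binding, genome stability or the p53 response, Tug1, 2900097C17Rik (Norad) and Trp53cor1 were members. Tug1 had 31.12 and 31.84 TPM and stands head to head with Morc2a, which had 8.42 and 4.72 TPM. Norad had 16.09 and 18.90 TPM from 546.40 and 607.86 counts. The deposited tables give Norad a length of 1149 bases, against 4915 in M21, so its TPM refers to a shorter model than the transcript searched for Pumilio letters. Gm7292 on chromosome 6, a member with 11.58 and 12.49 TPM, matched Norad at 99.2% identity over 100% of its 2527 bases and carried 9 of the Pumilio letter matches, 3.56 per kilobase. Its counts, 919.60 in replicate 1 and 941.14 in replicate 2, exceeded those of Norad, and the division of reads between this pair is uncertain. Trp53cor1 (lincRNA-p21), which lies upstream of the p53 target and cell cycle inhibitor Cdkn1a, had 2.03 and 2.63 TPM, and Cdkn1a had 36.72 and 40.11 TPM. Pvt1, next to Myc, stayed under the minimum at 69 and 81 counts, and Lncpint had no read.

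Of 8 matched genes listed for blood and erythroid cells, Ttc39aos1 alone was a member. It is an antisense gene whose transcript is among the 3 shortest of all members, and it had 16.80 TPM in replicate 1 and 14.85 in replicate 2 from 174 and 133 counts. Its neighbour Ttc39a, which starts 468 bases away on the other strand, had 5.72 and 4.13 TPM. Lockd, a lncRNA downstream of the cell cycle inhibitor gene Cdkn1b that was studied in erythroid cells, had 4.96 and 4.39 TPM from 56 and 46 counts and so fell under the minimum. The other 6, among them Hotairm1 of the HOXA cluster and Mir155hg, had no read. None of 7 matched genes listed for development and other tissues was a member, and Crnde came nearest with 69 and 54 counts. A count of 0 allows up to 3 counts in a library, so absence is limited by depth.

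Host genes of small RNAs numbered 14, of which 6 held microRNA genes and 8 held 16 snoRNA or scaRNA genes. Among the snoRNA hosts, Cct6a (Snora15) was followed by 1110038B12Rik (Snord52) at 51.07 and 66.55 TPM and 2410006H16Rik (Snord49a, Snord49b and Snord65) at 38.46 and 37.25 TPM. Zfas1, host of Snord12, had 16.76 TPM in replicate 1 and 20.02 in replicate 2. Box C/D snoRNAs such as these guide methylation of ribosomal RNA, and the Snora genes guide its pseudouridylation. The gene RefSeq calls Snhg16, named 1810032O08Rik in M21, escaped the exclusion by name and had 4.79 and 6.82 TPM. Gm29170 and Gm15832 hold 1 snoRNA gene each and averaged 5.62 ± 0.170 and 3.84 ± 1.16 TPM (SD, n = 2).

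Among the microRNA hosts, Dleu2 was the highest at 27.47 and 27.37 TPM, with 2832 and 2643 counts. Its leading transcript, Dleu2-215, took 41.22% of the TPM in replicate 1 and 39.02% in replicate 2. Mir17hg, with the 6 microRNA genes whose seeds are shown above, had 6.81 and 7.19 TPM from 767 and 769.09 counts. 6720427I07Rik, host of the let-7 trio, had 6.08 TPM in replicate 1 and 4.45 in replicate 2. C130071C03Rik (miR-9-2) and A330023F24Rik (miR-29b-2 and miR-29c) were low, at 1.31 ± 0.0354 and 1.03 ± 0.134 TPM (SD, n = 2). Of the listed hosts outside the members, Mir142hg had 6.25 and 10.22 TPM from 31 and 47 counts and Mir155hg had no read.

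By type the members were 70 TEC genes, 48 lincRNA, 36 processed_transcript, 32 antisense, 10 sense_intronic and 6 bidirectional_promoter_lncRNA genes. The processed_transcript members had the highest median, 7.28 TPM, and the TEC members the lowest, 2.28 TPM with none at 10 TPM or more. Chromosome 1 carried 60 of the 202 members (29.7%), against 15.8% of all 6836 listed genes and 5.91% of well-counted coding genes. Of the members there, 37 were TEC genes, out of 70 TEC members, and 8 were sense_intronic genes, out of 10. The annotation places 472 of all 1159 listed TEC genes on that chromosome.

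Relative to protein-coding genes, 69 members (34.2%) lay inside an intron on the same strand, 63 (31.2%) overlapped none, 48 (23.8%) overlapped an exon on the opposite strand, 16 (7.92%) overlapped an exon on the same strand and 6 fell in the other classes. Of the 6634 lncRNA genes that are not members, 9.35% lay in a same-strand intron and 50.7% overlapped no coding gene. The rule used the counts, so these shares describe the members and were not tested.

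**Figure D3:**
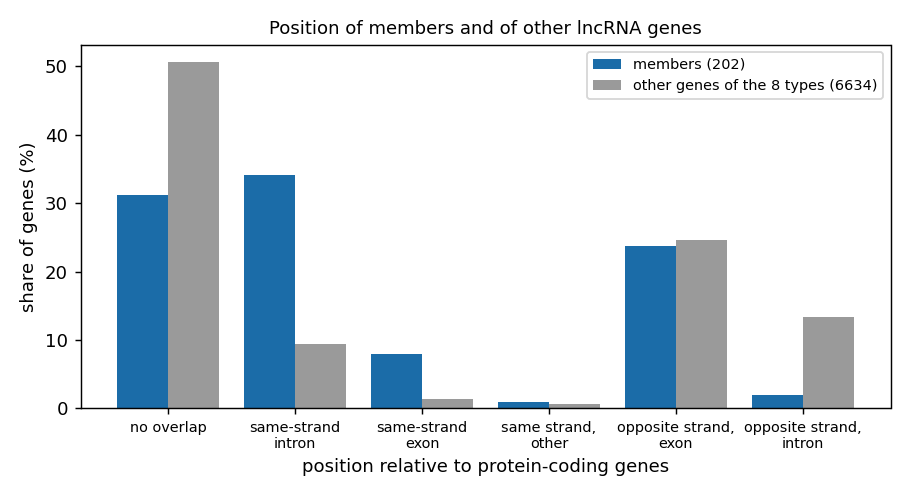
Share of genes (%) in each position class relative to protein-coding genes, for the 202 members (blue) and the 6634 other genes of the 8 types (grey). Same-strand introns hold 34.2% of members and 9.35% of the others, and genes without overlap 31.2% and 50.7%.

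The 69 intronic members lay in 57 host genes, and 66 of them were TEC or sense_intronic genes. They were low, with a median of 2.30 TPM, and held 14.3% ± 0.593 of the member counts (SD, n = 2). Their hosts were higher, with a median of 22.5 TPM over the 57 hosts and 55 hosts at 1 TPM or more. The median member had 0.0844 times the TPM of its host, the middle 50% of members 0.0349 to 0.173 times, and 66 of 69 were at or below the host. Across the 69 members, which share hosts in part and come from the same 2 libraries, member and host TPM had a Spearman rho of 0.46.

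Rabgap1l, a Rab GTPase-activating protein gene, held 4 members at 1.36 to 2.33 TPM while the host had 69.17 and 68.35 TPM. R3hdm1 and Nedd4, a ubiquitin ligase gene, held 3 each. F830112A20Rik, in an intron of Tmem131, had 7.83 and 7.33 TPM and Gm38115, in another part of the same gene, 4.40 and 4.12 TPM, with Tmem131 at 88.49 and 86.71 TPM. Gm17491 in Slc20a2, a phosphate transporter gene, was above its host, at 5.30 and 6.26 TPM, against 2.13 and 2.70 TPM for Slc20a2. The other 2 above their hosts lay in genes listed at 0. In total RNA, reads from the unspliced host and from a transcript of the member's own cannot be told apart at these positions.

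**Figure D4:**
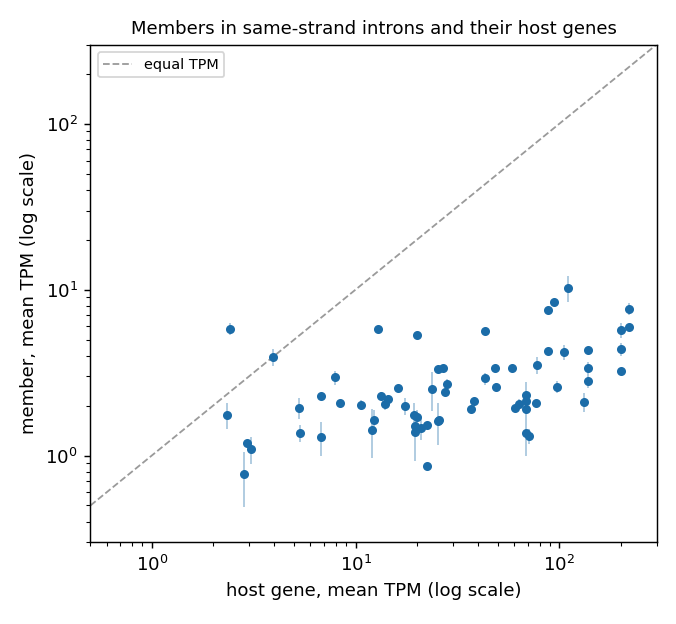
Mean TPM of 67 members in same-strand introns (vertical axis) against mean TPM of their host gene (horizontal axis), both on log scales, with bars from the lower to the higher replicate of the member and a dashed line at equal TPM. The 2 members whose host is listed at 0 are not drawn, and all points but Gm17491 lie on or under the line.

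The start of 52 members (25.7%) lay within 1000 bases of the start of a protein-coding gene on the other strand, against 15.1% of the other lncRNA genes. The coding partners of members had a median of 11.4 TPM, against 2.33 TPM for the partners of lncRNA genes that are not members. The member was lower than its partner in 36 pairs and higher in 15, with a median ratio of 0.307. Gm49383, the partner of 9330151L19Rik, had no listed level. The members were chosen on counts, so these shares and levels are descriptions and were not tested. Zfas1 was above Znfx1 (3.38 and 3.10 TPM), and A930005H10Rik, at 18.25 and 21.94 TPM, was above Dph5 (8.0 and 6.83 TPM), a gene of diphthamide synthesis. The Gt(ROSA)26Sor lncRNA, the ROSA26 locus used for ubiquitous transgene expression, had 12.31 and 13.70 TPM, and its head-to-head partner Setd5 had 62.65 and 66.36 TPM. 4632427E13Rik had 10.5 ± 1.93 TPM (SD, n = 2), 13.8 times the 0.760 TPM of Rab30. Gm14230 (13.68 and 9.19 TPM) beside Tgif2, 5530601H04Rik (9.91 ± 0.325 TPM) beside Pbdc1 and Ptprv (9.50 ± 0.700 TPM, SD, n = 2) beside Ptpn7 completed the 10 most abundant pairs with Cct6a, Tug1 and Ttc39aos1.

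Of the 48 members that overlap a coding exon on the opposite strand, 18 were above the coding gene in TPM and 30 at or below it. Of the 48 coding genes 41 averaged 1 TPM or more, and some of the 18 members stood opposite a gene at 0, such as Kcnq1. Strand-specific signal tracks are listed in the file headers, but whether the counts used strand is not given in the sources used here. Nespas and Gnas share 988 exon bases, yet their counts were whole numbers, 257 and 210 for Nespas and 15031 and 13890 for Gnas. Tug1 and Morc2a share 483, with 4900 and 4747.25 counts for Tug1 and 642 and 508 for Morc2a. Use of strand was not tested, and reads of such a pair cannot be told apart without it. The same holds on one strand for 1810026B05Rik, which RefSeq calls Chaserr, a lncRNA that restrains the chromatin remodeller gene Chd2 next to it. It had 25.33 TPM in replicate 1 and 22.67 in replicate 2, Chd2 had 21.63 and 17.33 TPM, and M21 gives them 2628 exon bases in common.

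The remaining abundant members have roles that are less well known. AI662270 had 40.58 and 41.90 TPM, 1810058I24Rik, a coding gene in RefSeq, had 16.99 and 18.35, 1700020I14Rik (Oip5os1 in RefSeq, known as Cyrano, which destroys miR-7) had 16.13 and 15.55, and Gm26853 had 14.73 and 15.63. In each of these the replicates lay close together. AU020206 had 17.00 TPM in replicate 1 and 13.23 in replicate 2, and 1300002E11Rik had 14.98 and 14.26. Gm17066, at 12.63 and 12.82 TPM, shares exons with the RNA-binding protein gene Rbm26 on the same strand, and Gm28857, at 14.17 and 10.77 TPM, lies opposite AA986860.

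The members had 433 listed transcripts, and 132 members had a single one. Among the 70 with several, the leading transcript by TPM differed between the libraries in 19 and by count in 11. A changed lead can come from near-equal shares. In Tug1 the lead passed between Tug1-202, with 37.53% and 35.48% of the TPM, and Tug1-203, with 32.98% and 39.42%. For Airn it passed between Airn-205 (40.5% and 42.6%) and Airn-201 (38.1% and 53%), and similar changes were seen in 1110038B12Rik, Zfas1 and 1810058I24Rik. 5430416N02Rik, named here after its values were seen, had 409 and 399 counts in replicates 1 and 2 but 8.07 and 4.92 TPM, as the leading form was one of 604 bases in replicate 1 and one of 3486 bases in replicate 2.

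The replicates lay close together for most members. Dividing the TPM of replicate 2 by that of replicate 1 gave log2 ratios with an SD of 0.38 and a median of 0.06 over the 202 members, and an SD of 0.28 and a median of 0.03 over well-counted nuclear coding genes. Members have fewer counts, and at 100 to 200 counts both groups had an SD of 0.42. Only Gm37677, a TEC gene in a same-strand intron, was 2-fold or more apart, at 0.49 and 1.05 TPM from 122 and 247 counts. That is 1 of 202 members, 0.495%, beside 0.726% of all genes with the count minimum and 0.654% of nuclear coding genes with it. At 1.5-fold or more apart were 27 members (13.4%), beside 5.49% of all genes and 5.17% of nuclear coding genes with the minimum. The 2-fold count changed with the scaling, as given under the processing alternatives.

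Counting noise alone would give an SD of 0.14 over the members for log2 ratios of counts. The observed SD of scaled count ratios was 0.36. When counts were scaled by the nuclear coding total, 91 members (45.0%) lay outside the 95% range of counting noise, 50 higher in replicate 2 and 41 higher in replicate 1. The same was true of 46.2% of all genes with the minimum and 46.0% of the nuclear coding genes. Within ranges of mean count the members' share lay on either side of that of coding genes. It was 36.8% for members and 35.4% for coding genes at 100 to 200 counts, 60.0% and 41.3% at 200 to 400, and 31.0% and 46.2% at 400 to 1000. Above 1000 counts it was 76.9% of only 13 members and 50.7% of coding genes. These differences were not tested.

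The members furthest apart after Gm37677 on the higher side of replicate 2 were Gm37653 (0.96 and 1.90 TPM), 9130221H12Rik (2.43 and 4.63), Gm21982 (0.93 and 1.62) and Gm37212 (1.00 and 1.73). Higher in replicate 1 were Gm38077 (2.15 and 1.08 TPM), Gm37747 (1.82 and 0.93), Gm28037 as given above, BC002059 (6.42 and 3.47) and Gm38120 (2.07 and 1.16). All 10 had smaller-library counts between 106 and 599.05, and 5 of them lay in same-strand introns.

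**Figure D5:**
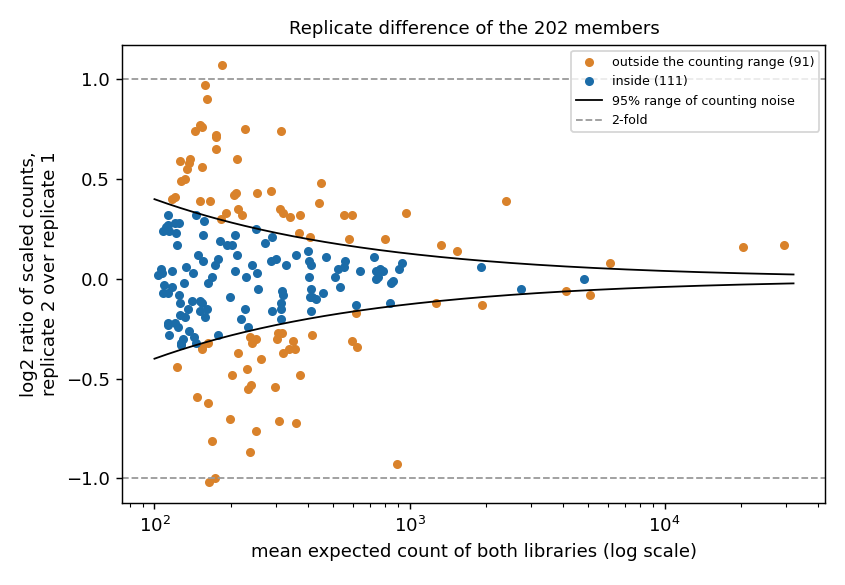
Log2 ratio of counts scaled by the nuclear coding total, replicate 2 over replicate 1, against the mean expected count (log scale) of each of the 202 members. Black lines mark the 95% range of counting noise for equal counts, dashed lines 2-fold, orange points the 91 members outside their own range and blue points the 111 inside, and the spread narrows as counts rise.

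At the edge of the rule, the members with the lowest smaller-library counts were 4833412K13Rik with 127 and 101 counts and Gm37499 with 101 and 115. Gm16001, with 104 and 102, was 1 of 5 members tied for the third place. Just outside were Gm11632 with 98.82 and 138.87 counts, 2610020C07Rik with 130 and 97 and AC093020.1 with 108 and 95. In TPM the outer 3, at 1.10 to 8.04, and the inner 3, at 0.91 to 4.31, overlapped. The longest members by mean length in the tables were Kcnq1ot1, Neat1 and Gm20342 (9720 bases, 2.95 ± 0.106 TPM, SD, n = 2), and the shortest were Gm10076 (384 bases), Gm42743 (414) and Ttc39aos1 (421). The shortest 3 all averaged above 15 TPM, and effective lengths were 119 and 123 bases shorter than the listed ones in replicates 1 and 2.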

How the data were processed

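Total RNA of G1E-ER4 cells was measured in 2 libraries of 1 group, each with a gene and a transcript table on mm10 and GENCODE M4, per the file headers. The aligner, the quantifier with its version, and whether strand was used in counting were not given in the sources used here. Deposited expected counts are the authors' estimated reads per gene, not normalized, with multiply mapping reads shared out. The deposited TPM values are the authors' levels per transcript length, summing to the same total in each library, with spike-ins in the sum. The FPKM values were scaled by the authors per kilobase and depth, and were used as an alternative. The transcript shares were deposited by the authors as percent of a gene's TPM.

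Names, types and coordinates came from GENCODE M21 by identifier without version, which left 884 Ensembl genes unnamed. The members and lists were chosen with earlier results of these data known. Named genes were the 25 highest by TPM, list members, the 5 highest and 5 lowest ratios, the 3 nearest each side of the count minimum, the leading small RNA hosts, head-to-head genes and transcript changes, and the 3 longest and shortest. Ratios had no pseudocount, since every member has 100 counts or more. The 95% range of counting noise treats counts as Poisson and covers counting error only. Alternatives used rounded expected counts with edgeR 4.0.16 and DESeq2 1.42.0 in R 4.3.3, for scaling factors and no test. The ratio step was tested on simulated data. Copies were searched with BLAST+ 2.17.0. Other steps ran in Python 3.11.15 with numpy 2.4.6, pandas 2.3.3, matplotlib 3.10.9 and scipy 1.17.1.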

Additional observations from a re-analysis of the deposited data

How the results depend on the processing

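The number of members was 336 at a count minimum of 50, 99 at 200, 132 without TEC genes and 80 for lincRNA and antisense genes alone, and 223 to 237 when a single replicate had to pass. At a TPM of 5 in both libraries 59 members were detected, and 190 to 195 passed 1 TPM in a single replicate. Their share of all counts, 0.281%, was 0.913% without Gm42418, Gm26917 and mitochondrial genes in the denominator, 0.243% of TPM, and 0.271% to 0.290% in single replicates. Chosen after seeing the data, it was 0.241% without members in same-strand introns and 0.25% without RefSeq coding genes and histone transcripts. The share within lncRNA types was 76.9% of TPM, and 83.8% to 84.2% of counts in single replicates. The median TPM of members was 13.1 when TPM was rescaled over nuclear coding genes, 4.15 without TEC genes, 3.89 without intronic members and 2.75 without coding and histone ones, and 3.0 to 3.09 in single replicates. Rescaling multiplied all 52 named members by 4.37 to 4.41, and posterior mean TPM moved 7 of them past their replicate SD. Members 2-fold or more apart were 0 with TPM + 0.1 or TPM + 1, 0 at a minimum of 200 and without intronic members, 11 at a minimum of 50, and 2 with each of the edgeR, DESeq2 and coding-total scalings. The SD of the log2 ratio was 0.27 with TPM + 1, 0.45 at a minimum of 50 and 0.28 at 200. The promoter shares without coding genes or distant starts were also chosen after seeing the data, and GATA letters were in 15.3% without coding genes. The cause was not tested. Leaving out a replicate cannot give a ratio between replicates. No paired analysis was possible because there is only 1 group. At mean counts of 100 to 200, counting noise alone gives an SD of 0.17 for ratios of counts. The observed SD of 0.42 there is for ratios of TPM, so the measures differ.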
